A study of Homo sapiens with 24 samples.

Results

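The interaction of hydroxyurea (HU) and LSM14A knockdown in total RNA is the amount by which the HU response of an mRNA differed between cells depleted of LSM14A and control cells. It was computed for each gene as the log2 change of HU against untreated (NT) cells in siLSM14A minus the same change in siCTRL. A value above 0 therefore means that the level with HU, relative to NT, was higher after knockdown than in control cells. The 12 total RNA libraries among the 24 of the series were used, 3 in each of the 4 groups, and 12666 protein-coding genes passed the filter on low counts and were tested. The remaining 12 libraries, of polysomal RNA from a 15 to 50% sucrose gradient, were used for the same interaction in that fraction and in an alternative with all libraries in one fit.

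All 4 groups were cells of A2058, a human line long established from a melanoma, that had received an siRNA, by the labels and the methods (a legend of the study names A375 for the HU comparison). The siCTRL NT and siCTRL HU groups were transfected with a scrambled siRNA, and the siLSM14A NT and siLSM14A HU groups with siRNA against LSM14A, at 20 nM in the methods. HU was given at 10 mM for 2 h, and NT cells were left without it. By the methods, cycloheximide, which locks mRNA on polysomes, was also added to the medium shortly before collection. Total RNA came from the input of these lysates, and no group was described as left without cycloheximide. Its part in the mRNA levels was not tested. The depletion is partial and short-lived by nature of an siRNA, and the groups stand for 1 cell line. Total RNA libraries were made from polyadenylated RNA and held 24789280 to 40645263 counts. The labels number the replicates 1 to 3 without saying whether these were separate cultures, so that p-values measure the spread between these libraries, which may be technical.

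LSM14A belongs to the RGG motif-containing proteins of the Scd6 family, binds the RNA helicase DDX6, and is a core protein of P-bodies, the cytoplasmic granules that hold translationally repressed mRNA and decapping enzymes. HU blocks the enzyme that makes deoxynucleotides from ribonucleotides, and cells in S phase answer the slowed DNA synthesis through the ATR and CHEK1 checkpoint. Decapping and repression factors act on mRNA after transcription, and stress-induced mRNAs such as those of immediate early genes and cytokines are known for short half-lives. The comparison asks whether the change of any mRNA level with HU depended on LSM14A.

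The libraries were those of a melanoma line by their markers. All 10 melanocyte lineage markers had a median of at least 1 CPM (counts scaled to a common library size), with DCT at 872, SOX10 at 672 and MITF at 134, while 4 of 13 markers of other cell types did, the highest being LUM at 41. KRT5 was at 0 in all 12 libraries. The summed level of the other markers overlapped between the groups, at 42.8 to 53.4 CPM in siCTRL NT, 42.2 to 55.3 in siCTRL HU, 47.2 to 55.7 in siLSM14A NT and 43.1 to 52.4 in siLSM14A HU. EGFR, a marker of dedifferentiated melanoma, was at 0 in 7 libraries, whereas AXL had a median of 193 CPM.

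Some libraries stood apart from their groups. On the principal component that held 30.1% of the variance around the group means, siCTRL NT 1 (16.2), siLSM14A NT 3 (14.5), siLSM14A HU 1 (10.9) and siCTRL HU 1 (10.6) were on the positive side and the other 8 libraries between -9.3 and -2.2. Each group holds 1 of the 4. The numbers of genes called for the interaction and for HU in total RNA are also given without them, an alternative chosen after seeing the data. Not every other result is given without them, and the interaction in polysomal RNA was not fitted that way. A surrogate variable, a covariate estimated from the libraries, was added to the model in a further alternative of that kind.

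No interaction passed the test. With edgeR (quasi-likelihood F-test, Benjamini-Hochberg adjusted over all genes), 0 of 12666 genes had an adjusted p under 0.05 (0% called). DESeq2 and limma-voom also called 0 genes, with 0.294 as the smallest adjusted p in limma-voom. At an unadjusted p under 0.05 edgeR gave 367 genes, 2.9% of those tested, DESeq2 307 and limma-voom 743. Of the 367 genes, 130 had an interaction above 0 (1.03% of the tested genes) and 237 below 0 (1.87%). The call was also 0 without the 4 libraries that stood apart and with the surrogate variable, at 371 and 617 genes with an unadjusted p under 0.05.

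The size of interaction that these libraries left possible differed with the level of the mRNA. The median standard error of the log2 interaction was 0.114 and the median half-width of its 95% interval 0.241. For 11390 genes (89.9%) the interval lay within -1 and 1, so that a change of the HU response by a factor of 2 was outside it. This held for 99.9% of the 7052 genes between 10 and 100 CPM and for 99.8% of the 2245 genes over 100 CPM. Among the 1047 genes under 1 CPM it held for 6.4%, and there the median half-width was 1.14. Among the 11619 tested genes averaging 1 CPM or more, 93 had an estimate beyond 0.5 in either direction and 3 beyond 1.

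**Figure D1:**
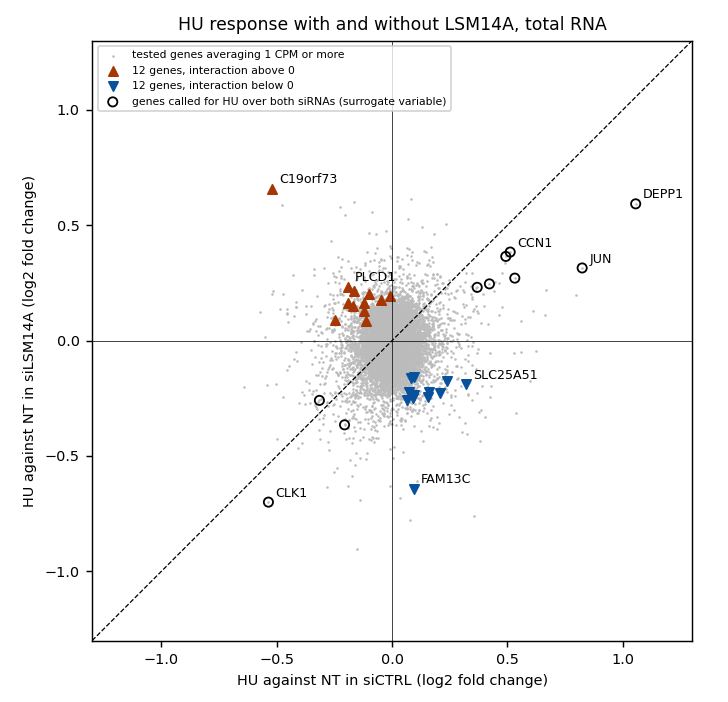
Log2 change with HU in siCTRL cells (x axis) against that in siLSM14A cells (y axis) in total RNA, each grey point 1 of the 11619 tested genes averaging 1 CPM or more, with the dashed line where both changes are equal. The triangles, 12 genes with the smallest p for each direction of the interaction, lie where the signs of the 2 changes are opposite, and the 10 circles, genes called for HU over both conditions with the surrogate variable, lie where they are the same; both positions follow from how the genes were picked.

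LSM14A itself was measured at 91.7, 95.9 and 96.8 CPM in siCTRL NT and at 90.7, 103 and 97.2 in siCTRL HU. In siLSM14A cells it was at 8.21, 9.33 and 7.8 CPM without HU and at 7.4, 8.58 and 6.88 with HU. Every siLSM14A library was far below every siCTRL library, and the HU and NT libraries of each siRNA overlapped. The knockdown changed the log2 level by -3.49 (SE 0.0828, edgeR adjusted p = 1.33e-13) in NT and by -3.67 (SE 0.0851, adjusted p = 9.03e-14) in HU, tests that called 1.03% and 1% of all genes, or 131 and 127. Those counts were 61 to 129 and 67 to 150 with 1 library left out, 254 and 205 in DESeq2, 13 and 17 with all 24 libraries in one fit, and, for HU, 211 with the replicate number as a block. The interaction was -0.19 (SE 0.117, 95% interval -0.44 to 0.06, adjusted p = 1), so the depletion did not differ detectably with HU.

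LIG4, the DNA ligase of non-homologous end joining, and RTEL1, a DNA helicase that takes apart recombination intermediates and telomeric loops, are genes whose translation the study examined, and they were not chosen independently of these samples. LIG4 was at 29.2, 24.7 and 28 CPM in siCTRL NT and at 23, 23.5 and 28.6 in siCTRL HU. After knockdown it was at 25.5, 26.3 and 32.2 CPM in NT and at 21.9, 23.7 and 25.9 in HU. The HU libraries were lower on average in both siRNA conditions but overlapped with NT in each, and the interaction was -0.12 (SE 0.149, 95% interval -0.43 to 0.20).

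RTEL1 was measured with few reads, 10 to 39 per library. The counts in siCTRL were 26, 29 and 10 in NT and 18, 21 and 22 in HU, and in siLSM14A 16, 39 and 19 in NT and 20, 16 and 24 in HU. The groups overlapped, and the interaction of 0.19 (SE 0.521) had a 95% interval of -0.92 to 1.29, which reached past a factor of 2. Its sign turned in 4 alternatives, and RTEL1 overlaps a read-through transcript, so its reads may be split between annotated genes. In polysomal RNA its interaction was 1.90 with an unadjusted p of 0.00995 in edgeR, where 0 of 12515 genes passed the adjusted p. That polysomal value was not followed through the alternatives. With 1 library left out, 37 to 829 genes were at an unadjusted p under 0.05 in that fraction. HPRT1, a purine salvage enzyme often used as a reference gene, was at 54.8 to 67.7 CPM over the 12 libraries, with an interaction of -0.15 (SE 0.101).

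**Figure D2:**
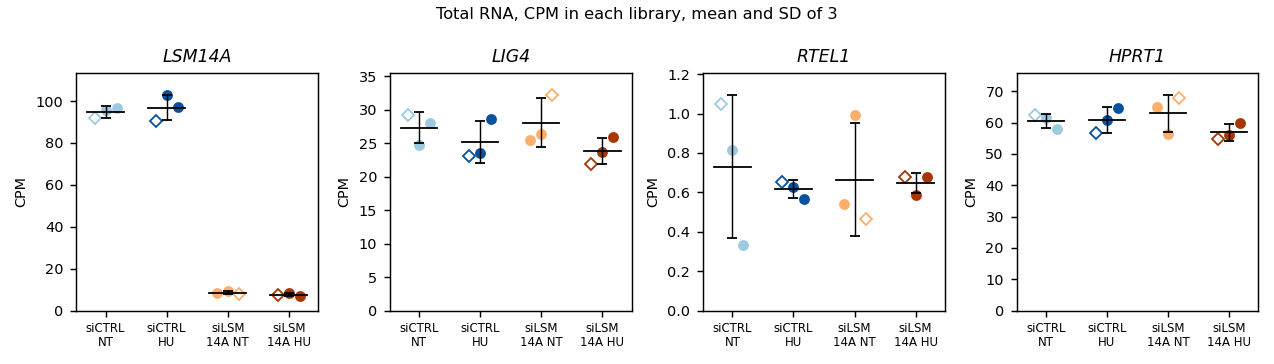
CPM of LSM14A, LIG4, RTEL1 and HPRT1 in each total RNA library, with horizontal lines for the mean and error bars for the SD of the 3 libraries of a group, and open diamonds for the 4 libraries that stood apart. LSM14A lies at 90.7 to 103 CPM in siCTRL and at 6.88 to 9.33 in siLSM14A, and the HU and NT libraries overlap in each panel.

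The genes with the smallest p for an interaction below 0 had slightly higher mean levels with HU in siCTRL and lower ones in siLSM14A. All 12 had opposite signs of the HU change in the 2 siRNA conditions, interactions of -0.74 to -0.25 and unadjusted p of 0.00174 to 0.00537, and an adjusted p of 1. In 6 of them (TMEM170B, SS18L1, SNRNP48, CDC37L1, VPS37A and SLC25A51) all 3 HU libraries were above all 3 NT libraries in siCTRL and below them in siLSM14A. Over all tested genes, 2.91% were above without overlap in siCTRL and 6.32% below in siLSM14A. The 12 genes were picked by the p of this contrast, so the pattern describes them and is no further support.

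TMEM170B, a transmembrane protein, had the smallest p of those 12. It was at 12.3, 12.3 and 13.2 CPM in siCTRL NT and at 14.3, 14.3 and 15.8 in siCTRL HU, against 12.9, 12.8 and 12.5 in siLSM14A NT and 11.2, 11 and 11.6 in siLSM14A HU. The HU libraries were the highest in control cells and the lowest after knockdown, with an interaction of -0.41 (SE 0.11, 95% interval -0.65 to -0.18). SS18L1, a subunit of neuronal chromatin remodelling complexes, was at 14.9, 15 and 15.8 CPM in siCTRL NT and at 17.4, 17.1 and 16.3 in siCTRL HU, then at 16.3, 18 and 18.5 in siLSM14A NT and at 15.3, 13.8 and 15.5 in siLSM14A HU. Its interaction was -0.40 (SE 0.11).

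RB1, the retinoblastoma protein that restrains entry into S phase, was at 17.9, 19.9 and 19 CPM in siCTRL NT and at 18.4, 22.6 and 24.4 in siCTRL HU. After knockdown it was at 22.5, 22.2 and 22.5 CPM in NT and at 17.5, 19.2 and 20.7 in HU. Only the siLSM14A groups were apart, and the interaction was -0.43 (SE 0.134). SLC25A51, the mitochondrial NAD carrier, had an interaction of -0.51 (SE 0.159), from group means of 5.63 and 7.08 CPM without and with HU in siCTRL and of 7.03 and 6.15 in siLSM14A. The other genes with values below 0 were UTP23, a ribosome biogenesis factor (-0.34), SNRNP48, a protein of the minor spliceosome (-0.25), MOB1B of the Hippo pathway (-0.30), MORC3 (-0.32), the HSP90 co-chaperone CDC37L1 (-0.38), FAM13C (-0.74), DNAJB9, a chaperone of the endoplasmic reticulum (-0.33) and VPS37A of the ESCRT-I complex (-0.25).

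The 12 genes with the smallest p for an interaction above 0 had lower mean levels with HU in siCTRL and higher ones in siLSM14A. Their interactions were 0.20 to 1.18, their unadjusted p 0.00383 to 0.0112, and their adjusted p 1. COL4A5, a chain of basement membrane collagen, was at 31.7, 32.2 and 35.7 CPM in siCTRL NT and at 27.1, 29.5 and 30.5 in siCTRL HU, against 28.1, 27.7 and 27.5 in siLSM14A NT and 29.7, 35 and 28.6 in siLSM14A HU. All HU libraries were below NT in control cells and above NT after knockdown (over all genes 2.57% were below in siCTRL and 5.2% above in siLSM14A), with an interaction of 0.35 (SE 0.11). HLA-B, a class I antigen-presenting molecule, had the same arrangement, from 28.8, 27.3 and 27.8 CPM in siCTRL NT to 26, 24.5 and 26.5 in siCTRL HU and from 30.9, 28.9 and 29.1 in siLSM14A NT to 33.2, 32 and 31.8 in siLSM14A HU. Its interaction was 0.25 (SE 0.0839), and reads of the similar HLA class I genes may be shared with it.

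XPC, the damage sensor of nucleotide excision repair and a p53 target, was at 50.8, 50.9 and 52.3 CPM in siCTRL NT and at 49.5, 51.5 and 48.1 in siCTRL HU. After knockdown it was at 41, 44.4 and 41.7 CPM in NT and at 48.8, 46 and 48.6 in HU. The siLSM14A NT libraries were the lowest of all 12, and the interaction was 0.22 (SE 0.0763). XAB2, which acts in transcription-coupled repair and splicing, had 0.32 (SE 0.105), and the endocytic receptor LRP1 had 0.38 (SE 0.122). The largest estimate of the 12, 1.18 (SE 0.364), was that of C19orf73 at a mean of 1.32 CPM. The others were ABCC10 (0.30), a drug efflux transporter, C1RL (0.33), TNS3 (0.20), a focal adhesion protein, SEZ6L2 (0.28), PLCD1 (0.43), a phospholipase C, and FIBP (0.20).

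**Figure D3:**
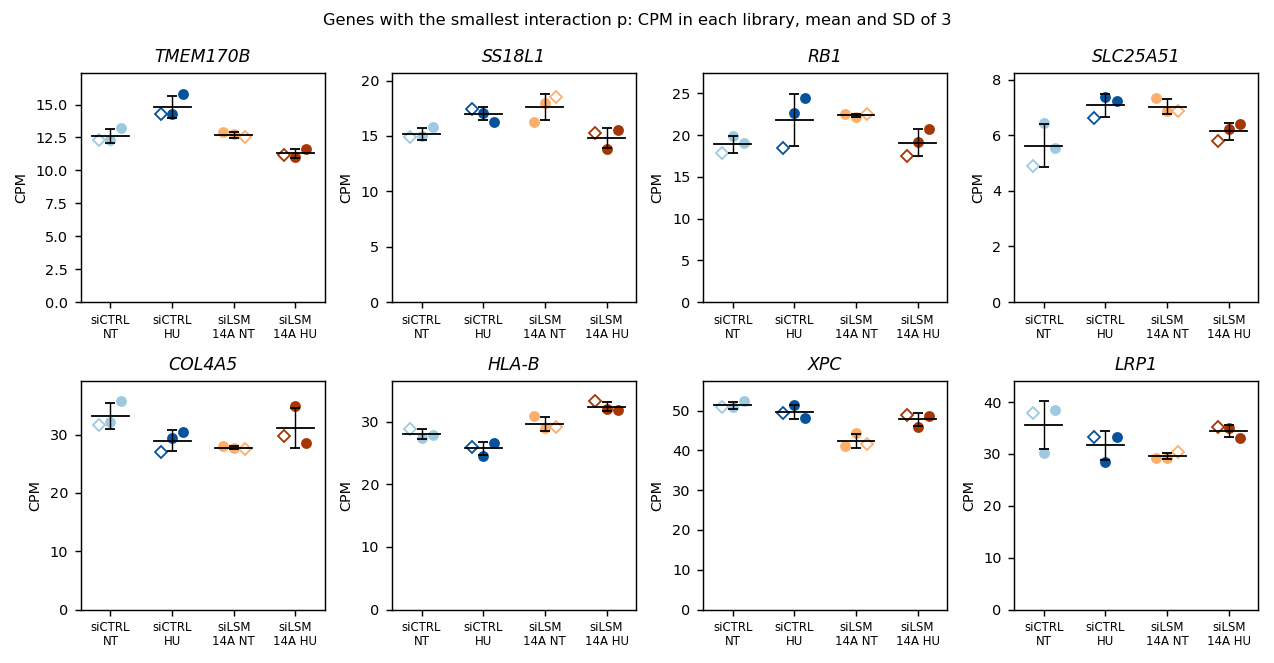
CPM of 8 genes among those with the smallest p for the interaction, in each total RNA library, with the mean and SD of the 3 libraries of a group and open diamonds for the 4 libraries that stood apart. In TMEM170B, SS18L1 and SLC25A51 the HU libraries lie above NT in siCTRL and below NT in siLSM14A, and in COL4A5 and HLA-B the order is the opposite; none of the 8 passed the adjusted p.

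Base composition moved with the interaction. The 12 genes with values below 0 had a median GC content of 37.2% in their longest transcript and the 12 with values above 0 of 57.5%, against 47.7% over all tested genes. Across the 12666 genes, which are not independent, the Spearman correlation of the interaction with GC content was 0.456. In the tenth of genes with the lowest GC content (29.2 to 38.1%), 85.6% of interactions were below 0 and the median was -0.115, and in the tenth with the highest (61.6 to 76%) these values were 28.4% and 0.068. The correlation with GC content was -0.025 for the HU change in siCTRL and 0.537 for that in siLSM14A, and single libraries had correlations from -0.52 in siLSM14A NT 3 to 0.39 in siCTRL HU 1 and siLSM14A HU 1. With a GC correction in the model 0 genes passed the adjusted p and 244 had an unadjusted p under 0.05, of which 123 were above 0 and 121 below, in place of 130 and 237. An unadjusted p under 0.05 was then found for 12 of 12 genes above 0 and 11 of 12 below. These genes were picked by the p of the same contrast in the same libraries, so this is no further support. The part of GC content in the single genes was not tested.

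The interaction in polysomal RNA was also called for 0 of 12515 genes, with 134 (1.07%) at an unadjusted p under 0.05 in edgeR. DESeq2 and limma-voom called 0 there too, with 162 and 1389 unadjusted. Of the 24 genes with the smallest p in total RNA, 9 had the same sign in polysomal RNA, 7 of the 12 above 0 and 2 of the 12 below, where 44.2% of all genes tested in polysomal RNA were below 0. SLC25A51 was at 0.75 there against -0.51 in total RNA, RB1 at 0.60 against -0.43 and TMEM170B at 0.48 against -0.41. Whether the interactions of the 2 fractions differed was not tested.

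CXCL11, a chemokine that recruits T cells and is induced by interferon and NF-kB, had the largest estimate and the smallest p among genes under 1 CPM and was picked out after its values were seen. Its counts were 2, 5 and 7 in siCTRL NT and 7, 15 and 9 in siCTRL HU, against 15, 18 and 19 in siLSM14A NT and 3, 0 and 2 in siLSM14A HU. The siLSM14A NT libraries were at or above every siCTRL library and the siLSM14A HU libraries at the bottom with siCTRL NT 1. The fitted interaction was -4.04 (SE 0.78, unadjusted p = 9.4e-05, edgeR adjusted p = 1), a value that depends on the prior count of the fit since 1 library was at 0.

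The HU response itself gave few or no called genes at 2 h. HU against NT was called for 0 genes in siCTRL and for 0 in siLSM14A by edgeR's quasi-likelihood test, with 214 (1.69%) and 768 genes (6.06%) at an unadjusted p under 0.05 (130 to 394 and 397 to 1176 with 1 library left out, and 303 and 469 with the GC correction). It was called for 0 genes (514, or 4.06%, unadjusted, and 379 to 903 with 1 library left out) when both siRNA conditions were averaged, an analysis added after seeing the data. With the replicate number as a block, which the correlations support for the siCTRL libraries, HU in siCTRL had 353 genes unadjusted and 0 called. DESeq2 called 0, 0 and 2 genes (SOCS3 and ZNF791) in the same comparisons, with 150, 679 and 447 unadjusted, and limma-voom 0 in each, with 532, 1003 and 805. With the surrogate variable the average was called for 10 genes, 0.079% of those tested, and without the 4 libraries that stood apart for 15. These genes are named after their values were seen.

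A set of 7 mRNAs rose with HU in the fit with the surrogate variable. They were JUN (log2 change 0.70, SE 0.086, edgeR adjusted p = 0.00087), a subunit of AP-1, SOCS3 (0.41, SE 0.0562), which limits cytokine signalling, NFKBIA (0.36, SE 0.0513), the inhibitor of NF-kB, DEPP1 (1.03, SE 0.141), a FOXO target, the matricellular YAP targets CCN1 (0.74, SE 0.109) and CCN2 (0.61, SE 0.0941), and CITED2 (0.33, SE 0.0623), a CBP and p300 binding protein. CLK1, a kinase of SR splicing factors, fell by 0.60 (SE 0.0716, adjusted p = 0.00087), and the zinc finger genes ZKSCAN8 and ZNF791 fell by 0.28 and 0.29. The largest adjusted p of the 10 was 0.0498. Without the surrogate variable none of them passed in edgeR, with adjusted p of 0.836 to 0.996, and without the 4 libraries 8 of the 10 did.

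JUN was at 29.9, 13.7 and 9.48 CPM in siCTRL NT and at 41.4, 24.6 and 26.9 in siCTRL HU, against 17.1, 16.2 and 40 in siLSM14A NT and 38.5, 24.2 and 29.1 in siLSM14A HU. The NT libraries siCTRL NT 1 and siLSM14A NT 3 were at the level of HU libraries and the groups overlapped, while within the same-numbered siCTRL libraries JUN was higher with HU in 3 of 3. The labels give siCTRL NT 1 and siLSM14A NT 3 as NT, and all values here take the labels as given. The HU libraries that stood apart, siCTRL HU 1 (41.4) and siLSM14A HU 1 (38.5), were also the highest HU libraries of their siRNA for JUN. Whether the libraries that stood apart shared a batch, or were handled or labelled differently, was not tested. CCN1 was at 196, 48.8 and 46.4 CPM in siCTRL NT, 181, 99.8 and 131 in siCTRL HU, 73.9, 74.1 and 231 in siLSM14A NT and 204, 140 and 152 in siLSM14A HU. Here siCTRL NT 1 and siLSM14A NT 3 lay above every HU library of their siRNA, so siCTRL replicate 1 was lower with HU. CLK1 was lower with HU, and siCTRL NT 1 lay below the HU libraries of its siRNA and siLSM14A NT 3 just above those of its own, at 22.7, 49.6 and 41.7 CPM in siCTRL NT, 24.7, 28.2 and 26.2 in siCTRL HU, 47.6, 46.3 and 27.4 in siLSM14A NT and 22.3, 26.1 and 26 in siLSM14A HU. Among 12 genes looked at, the 10 above with CLK4 and DDIT4, siCTRL NT 1 lay within or beyond the HU libraries of its siRNA in 8 and siLSM14A NT 3 in 8, against 0, 0, 1 and 0 for the other 4 NT libraries. Both are among the 4 libraries left out above, so the calls without them are not independent of that choice. The 12 genes were picked after their values were seen, 10 of them by the fit with the surrogate variable. The count over these genes is therefore no further support, and the share over all tested genes was not computed.

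**Figure D4:**
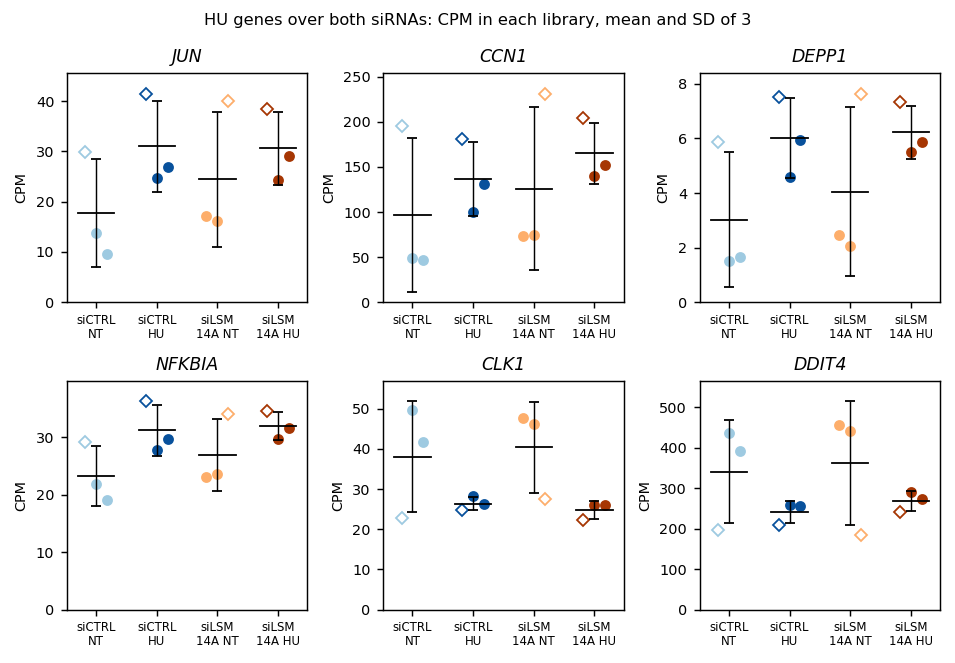
CPM of JUN, CCN1, DEPP1, NFKBIA, CLK1 and DDIT4 in each total RNA library, with the mean and SD of the 3 libraries of a group. The open diamonds are the libraries that stood apart; in the NT groups those of siCTRL NT 1 and siLSM14A NT 3 lie near the HU libraries, for JUN at 29.9 and 40 CPM against 9.48 to 17.1 in the other NT libraries.

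No difference between the siRNA conditions in the response of these genes passed the test. All 10 had the same sign in both, which choosing them by the average over both conditions favours and which is no further support. The interaction was below 0 in 9 of the 10, where 50.1% of all tested genes were below 0. It ran from 0.06 for ZKSCAN8 to -0.51 for JUN, with unadjusted p of 0.138 to 0.853 in edgeR. A value below 0 stands for a smaller rise after knockdown in the 7 genes that rose and for a larger fall in CLK1 and ZNF791. The intervals were wide, as for JUN (-1.60 to 0.58), DEPP1 (-1.84 to 0.91) and CCN1 (-1.56 to 1.31). With the surrogate variable JUN had a HU change of 0.95 (SE 0.123) in siCTRL and of 0.44 (SE 0.119) in siLSM14A, and its interaction was -0.50 (SE 0.171, unadjusted p = 0.00819, edgeR adjusted p = 0.893). SOCS3 followed at -0.26 (SE 0.112, unadjusted p = 0.0344, adjusted p = 0.893). In that fit JUN, SOCS3, NFKBIA and DEPP1 were called for HU in siCTRL and CLK1 in siLSM14A, but these calls do not show a difference between the siRNAs, since the interaction did not pass. DDIT4, an inhibitor of mTORC1, had HU changes of -0.50 in siCTRL and -0.43 in siLSM14A and an interaction of 0.07 (SE 0.39).

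Parts of some promoters are shown as background. The promoters were taken from RefSeq in the GRCh38.p14 build, with 250 bases before and 50 after the start of the gene. JUN, NFKBIA and CCN2 are among the genes called for HU with the surrogate variable, and PPP1R15A and CXCL11 are not. The counts of CXCL11 were lower with HU in siLSM14A. Every part shown holds a motif, so the display does not stand for the called genes, whose motif counts are given below. Capitals mark the CRE-like letters TGACNTCA in JUN and in PPP1R15A, the phosphatase subunit of the integrated stress response. They also mark letters that match a kB pattern, called the kB site below, in NFKBIA, CCN2 and CXCL11, and the AP-1 letters TGANTCA in CXCL11. A match does not show which factor binds there.
JUN: aggccttggggTGACATCAtgggctatttt
PPP1R15A: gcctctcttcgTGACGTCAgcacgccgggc
NFKBIA: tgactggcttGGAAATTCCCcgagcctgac
CCN2: aggaatgcgaGGAATGTCCCtgtttgtgta
CXCL11: gtgcaTGACTCAaagaGGGAAATTCCtgtg
The windows lie at chr1:58784096-58784125 on the minus strand for JUN, chr19:48872352-48872381 on the plus strand for PPP1R15A, chr14:35404811-35404840 on the minus strand for NFKBIA, chr6:131951448-131951477 on the minus strand for CCN2 and chr4:76036133-76036162 on the minus strand for CXCL11. The motif begins 67 bases upstream of the start in JUN, 58 in PPP1R15A, 81 in NFKBIA and 95 in CCN2, the last 2 read on the opposite strand, and in CXCL11 at 87 for AP-1 and 76 for the kB site. On either strand, TGACNTCA was in 7.72% of the 35116 promoters of the table, TGANTCA in 7.71% and the kB site in 9.08%. Of the 9 HU-responsive genes above with an entry, 1 held TGACNTCA, 0 held TGANTCA and 2 held the kB site. Of 26 immediate early genes with an entry, 8 held TGACNTCA (30.8%), 1 TGANTCA and 2 the kB site. PPP1R15A was at 66.9 to 85.4 CPM in siCTRL NT and 84.1 to 108 in siCTRL HU, and at 76.9 to 86.8 and 89.1 to 97.9 in siLSM14A, with an interaction of -0.10 (SE 0.13).

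Gene lists were described by the share of tested members below 0, where 50.1% of all tested genes were below 0 (47.1% with the GC correction) and the median was 0. No member of the 32 lists passed the adjusted p. The list medians lay between -0.135 and 0.078, 20 below 0 and 12 above, and 14 of the 32 kept their sign in all 24 alternatives. The GC correction turned the sign of the median in 4 lists. In polysomal RNA, where the median over all genes was 0.048, the list median was on the other side of 0 in 19 lists.

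The lowest medians were those of the NF-kB, heat shock and immediate early lists. In the NF-kB and cytokine list 19 of 24 members were below 0 with a median of -0.135, from HU changes of 0.116 in siCTRL and 0.065 in siLSM14A. Its smallest p were those of BIRC3, an inhibitor of apoptosis (-0.39, SE 0.164), and IRF1, a transcription factor of the interferon response (-0.18, SE 0.114). Of the immediate early genes 29 of 35 were below 0 (32 with the GC correction), with a median of -0.076 from 0.113 in siCTRL and 0.045 in siLSM14A. JUND, an AP-1 subunit, had -0.12 (SE 0.0887) and DUSP2, a MAP kinase phosphatase, -0.24 (SE 0.194), and 0 of the 35 had an unadjusted p under 0.05.

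Of the heat shock proteins 22 of 25 were below 0, with a median of -0.087. CHORDC1, an HSP90 co-chaperone, was at -0.26 (SE 0.0865, unadjusted p = 0.00928), and DNAJB4 at -0.22 (SE 0.11). The medians of the NF-kB list and the heat shock list stayed below 0 in all 24 alternatives, at -0.151 to -0.053 and at -0.13 to -0.064, and that of the immediate early genes was 0, with 18 of 35 below, without siCTRL HU 1. In polysomal RNA the medians were -0.102 for the NF-kB list, -0.064 for the immediate early genes and 0.002 for the heat shock proteins. ERK feedback genes had 14 of 19 members below 0 (8 in polysomal RNA, with a median of 0.152), and hypoxia targets 16 of 27. Of the ERK feedback genes in total RNA, CCND1, cyclin D1, was at -0.12 (SE 0.1) and the receptor EPHA2 at 0.09 (SE 0.0842).

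Of the pathways tied to the action of HU, the checkpoint list had the lower median. In the main fit dNTP supply and the replication fork had medians within 0.005 of that of all genes. For ribonucleotide reductase and the dNTP supply 15 of 30 members were below 0, with a median of -0.005, and DCK, deoxycytidine kinase, had the smallest p (-0.26, SE 0.127), followed by CMPK1 (-0.13, SE 0.077). In the list of the replication fork and licensing 21 of 42 were below 0. With the GC correction 15 were below 0 and the median was 0.031. CDC45 of the replicative helicase was at 0.19 (SE 0.08) and ORC3 of the origin recognition complex at -0.24 (SE 0.102). For the ATR and CHEK1 checkpoint 21 of 28 were below 0 and the median was -0.06 (-0.027 with the GC correction), below 0 in all 24 alternatives in total RNA. In polysomal RNA 8 of the 28 were below 0 and the median was 0.097. In total RNA the kinase WEE1 was at -0.20 (SE 0.092) and DBF4, the activator of CDC7, at -0.27 (SE 0.132). p53 targets were below 0 in 18 of 28, with XPC at 0.22 and TIGAR, a regulator of glycolysis, at -0.28 (SE 0.134).

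Non-homologous end joining, the repair pathway of LIG4, had 4 of 15 members below 0 (8 without siCTRL NT 1) and a median of 0.038, with POLQ, the polymerase of alternative end joining, at -0.15 (SE 0.0882). For homologous recombination and Fanconi anaemia 25 of 39 were below 0, 20 with the GC correction and 12 in polysomal RNA. The nuclease subunit EME1 was at 0.20 (SE 0.093) and the helicase BLM at -0.22 (SE 0.109). The G2/M list had 27 of 40 members below 0 with a median of -0.046, but 16 of 40 were below 0 and the median was 0.032 without siLSM14A NT 3, and with the GC correction 21 were below 0 and the median was -0.005. Its smallest p were at NUF2 of the kinetochore (-0.20, SE 0.111) and ECT2, needed for cytokinesis (-0.18, SE 0.109). In polysomal RNA 14 of the 40 were below 0 and the median was 0.131. Histone genes (5 of 13 below 0) are read poorly by libraries of polyadenylated RNA, since most of their mRNAs lack a poly(A) tail.

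Among the partners of LSM14A, 10 of 29 genes of P-body repression and decapping were below 0. The median was 0.034, at 0.012 to 0.052 over the alternatives, and -0.034 in polysomal RNA. LSM14A had the lowest value of the list (-0.19) and EDC3, an enhancer of decapping, was at 0.11 (SE 0.0704). In the CCR4-NOT and deadenylation list 12 of 19 were below 0 (10 with the GC correction, median -0.002), with CNOT10 at -0.16 (SE 0.0862) and PAN2 at 0.19 (SE 0.109). Stress granule proteins were below 0 in 15 of 24 (10 without siCTRL NT 2), with FXR1 at -0.16 (SE 0.0934) and TIAL1 at -0.09 (SE 0.0804). With the GC correction 11 of the 24 were below 0, and the median went from -0.008 to 0.012. For initiation factors (22 of 37) the smallest p was at EIF4A2, an RNA helicase of the cap-binding complex (-0.23, SE 0.0734, unadjusted p = 0.00613).

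Ribosomal proteins and respiratory chain subunits had medians above 0. Of 78 cytosolic ribosomal proteins 10 were below 0 (21 without siLSM14A NT 3), and the median interaction was 0.071, from HU changes of 0.016 in siCTRL and 0.089 in siLSM14A. RPS29 had the smallest p (0.24, SE 0.0951), followed by RPS19 (0.18, SE 0.0891), and processed copies of such genes may share reads. In polysomal RNA 77 of the 78 were below 0 with a median of -0.404, against a median of 0.048 over all genes tested there. Nuclear-encoded respiratory chain subunits had 16 of 68 below 0 in total RNA (29 without siLSM14A NT 3, median 0.049) and 63 of 67 in polysomal RNA (median -0.286). At an unadjusted p under 0.05 in edgeR there were 8 of the 78 and 0 of the 67 in polysomal RNA, against 1.07% of all genes. Both lists kept a median above 0 in total RNA in all 24 alternatives. List medians in polysomal RNA were not computed under the alternatives, so their dependence on single libraries is not known, and members of a list are not independent. A test of the difference between the fractions was not made.

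Cholesterol synthesis had the highest median, 0.078, with 7 of 25 members below 0. MSMO1, a sterol oxidase, was at -0.26 (SE 0.113) and SREBF1, a transcription factor of lipid synthesis, at 0.22 (SE 0.108). Extracellular matrix genes and integrins were below 0 in 7 of 28 (13 without siCTRL NT 1), with ITGB5 at 0.15 (SE 0.0818), and proteasome subunits in 13 of 35, with the immunoproteasome subunit PSMB8 at 0.25 (SE 0.0898). The splicing factors of the SR and hnRNP families were below 0 in 23 of 30 with a median of -0.047, which was 0.009 with the GC correction. These had a median GC content of 40.9%.

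The remaining lists were mixed. Interferon-stimulated genes were below 0 in 17 of 35, NRF2 targets in 15 of 28, integrated stress and unfolded protein response genes in 13 of 33, iron homeostasis in 12 of 18, and apoptosis regulators in 17 of 23 with a median of -0.055, where HRK was at -0.73 (SE 0.299) and BMF at 0.35 (SE 0.154). Melanocyte lineage genes were below 0 in 11 of 19 (7 without siLSM14A NT 3), with MITF, their master regulator, at -0.16 (SE 0.063). With the GC correction 8 of them were below 0 and the median was 0.005. Dedifferentiated melanoma genes were below 0 in 10 of 19. Mitochondrially encoded mRNAs were below 0 in 9 of 13 (2 without siLSM14A HU 1), with a median that ran from -0.217 to 0.101 over the alternatives. Markers of other cell types had 3 of 8 tested members below 0 (5 without siCTRL HU 1), with KRT8 at 0.38 (SE 0.16).

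**Figure D5:**
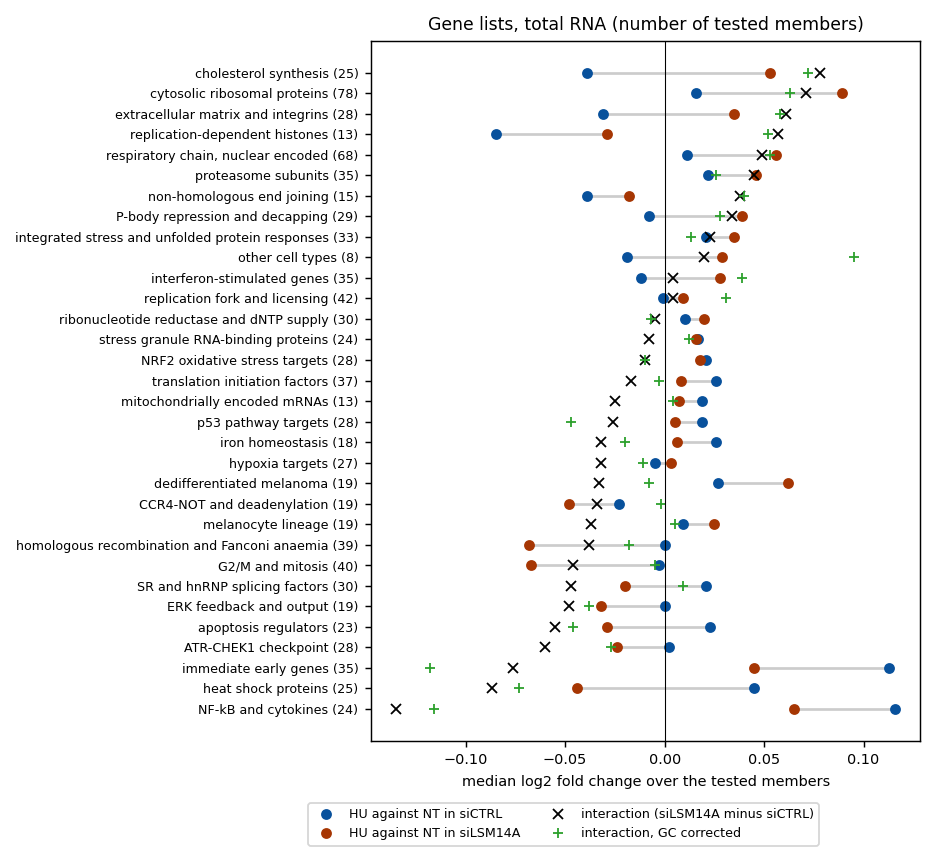
Median log2 change with HU over the tested members of each of 32 gene lists in siCTRL (blue) and siLSM14A (brown), with the median interaction (crosses) and the same after the GC correction (plus signs), with the number of tested members in brackets. The medians of the interaction run from -0.135 for NF-kB and cytokines to 0.078 for cholesterol synthesis, all close to 0 on the log2 scale.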

How the data were processed

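The 24 libraries of A2058 RNA were stranded and paired-end with 100-base reads. The authors used STAR 2.6.1a on hg19, after trimming, and deposited raw counts per gene of Gencode 34. Samples were grouped by their deposited labels. Of 20345 IDs, 19086 were protein-coding in Gencode 44 lifted to hg19; 551 of other types and 708 not found were left out of the main tests.
Here, the 12 total RNA libraries were fitted together in R 4.3.3 with edgeR 4.0.16 (quasi-likelihood F-test, TMM, filterByExpr at 10 counts and 15 in total, Benjamini-Hochberg adjustment, 95% intervals from the same model). CPM were scaled by the TMM library sizes of protein-coding genes. Same-numbered libraries deviated together (correlation above 0.1 in every pair) for siCTRL HU with siCTRL NT (0.29, 0.29 and 0.19). They did so too for siLSM14A HU with siCTRL HU (0.35, 0.2 and 0.28) and with siCTRL NT (0.31, 0.21 and 0.18). Blocked counts are therefore given beside HU in siCTRL and the knockdown in HU. For siLSM14A NT not every pair was above 0.1. Replicates differed beyond sampling noise, so each counted once. The genes named are LSM14A, LIG4, RTEL1 and HPRT1, up to 12 genes per direction of the interaction with the smallest p at 1 CPM or more, and the 2 members of each list with the smallest p; others are said to be picked after their values were seen. The result for 1 gene that this rule names is not reported here. The groups and the 32 lists were chosen with earlier results of these data known. The fit was tested on simulated data. Alternatives used DESeq2 1.42.0, limma 3.58.1 (voom with quality weights), sva 3.50.0 (1 surrogate variable), a loess GC offset (span 0.3), other filters and normalization, the replicate number as a block, all 24 libraries, and each library left out. Polysomal libraries held 28776634 to 44897501 counts.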

Additional observations from a re-analysis of the deposited data

How the results depend on the processing

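The interaction in total RNA was called for 0 genes in every alternative tried, with 39 genes (all 24 libraries in one fit) to 773 genes at an unadjusted p under 0.05; leaving out a library gave 249 (without siLSM14A HU replicate 1) to 773 (without siCTRL HU replicate 1), in place of 367. Counts beyond 1.5 times of it were 39, 584 without siLSM14A HU replicate 3, 596 without siLSM14A NT replicate 1, 617 with the surrogate variable, 743 in limma-voom and 244 with the GC correction. The replicate number as a block gave 676 (0 at the adjusted p) and block with GC correction 373. For the interaction the numbers were not taken to pair all 12 libraries: 12 of 18 same-numbered pairs correlated above 0.1 (-0.26 to 0.35), the other 6 all with siLSM14A NT 1 or 3, and 9 of 12 libraries correlated best with their own number. The polysomal interaction gave 0 genes throughout, 134 unadjusted, 487 with the block, 1389 in limma-voom and 37 to 829 with a library left out. HU against NT in siCTRL rose from 0 calls to 4 with the surrogate variable and 7 without the 4 libraries apart, in siLSM14A to 1 and 6, and averaged to 10 and 15 (2 in DESeq2); leaving out 1 library gave 0 in each. Of 2110 values of the 88 named genes under 24 alternatives, 2102 kept their direction. LIG4 ran from -0.18 to 0.001 with a library left out, above 0 without siLSM14A NT replicate 3. RTEL1 turned to -0.378 in limma-voom, -0.109 without siCTRL NT replicate 1 and -0.042 without siLSM14A NT replicate 3 (up to 0.614 with another library left out) and -0.324 without the 4 libraries. MT-ND4L ran from -0.388 to 0.075, above 0 without siCTRL HU replicate 3, and HNRNPH1 to 0.013 with the GC correction and 0.014 with block and GC correction. The cause was not tested. Counting error limits genes under 1 CPM.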
